A study of Mus musculus with 12 samples.

Results

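Spleen cells carrying the erythroid surface protein Ter119 and a high level of the transferrin receptor CD71 were compared between mice labelled as knockouts for both Rb and E2f8 (DKO) and mice labelled as knockouts for E2f8 alone (E2f8 KO). The comparison was defined by the genotype in the array titles, 3 DKO arrays against 3 E2f8 KO arrays, out of 12 arrays in the series. It asks what the Rb label added where E2f8 was already labelled as lost, since both groups carry the E2f8 label. The other 6 arrays, 3 of mice labelled Rb KO and 3 of WT mice, entered the fit for its estimate of spread and give the same Rb comparison without the E2f8 label. All mice were 3 months old, and the sources used here name neither the promoter or Cre behind each deletion nor the strain, the sex or any pooling of mice.

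The retinoblastoma protein Rb binds activating E2F transcription factors and holds back their target genes, among them the genes for copying DNA, until a cell commits to divide. E2f7 and E2f8 are atypical E2F proteins that repress many of the same targets without needing Rb. Cells with Ter119 and high CD71 are dividing erythroblasts, which make heme and globin and must leave the cell cycle to shed the nucleus, and Rb is known to be needed for this exit in mice.

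Single-channel Affymetrix arrays gave 1 value per probe set on a log2 scale, so that a difference of 1 is a factor of 2. Array medians lay between 6.22 and 6.35, and correlations between arrays of a group lay between 0.968 and 0.983 for DKO, 0.990 and 0.992 for E2f8 KO, 0.920 and 0.988 for Rb KO, and 0.966 and 0.976 for WT. Xist was low, and Eif2s3y high, in DKO replicate 3 and E2f8 KO replicate 3 only, so that both groups held the same split of the X and Y markers. DKO replicate 3 also stood apart in granulocyte genes, Rb KO replicate 1 had lower B cell genes than the other Rb KO arrays, and WT replicate 2 differed from the other WT arrays in several genes named below.

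The genes named in the labels came first. Rb1 measured 12.23, 11.98 and 12.17 in the DKO arrays, against 11.74, 11.68 and 11.72 in the E2f8 KO arrays, a difference of 0.41 ± 0.11 (SE, adjusted p = 0.0803 in limma). E2f8 measured 13.13, 13.17 and 13.09 in DKO, against 12.89, 12.81 and 12.74 in E2f8 KO, a difference of 0.32 ± 0.19 (adjusted p = 0.395). Neither gene was lower in the arrays labelled DKO than in those labelled E2f8 KO. Rb1 averaged 12.42 in Rb KO, against 12.82 in WT, so that E2f8 KO, at 11.71, had the lowest mean of the 4 groups. E2f8 averaged 12.19 in Rb KO, against 11.95 in WT, both below its means of 13.13 in DKO and 12.81 in E2f8 KO. The sources used here do not say where each probe set lies relative to the deleted part, so these values do not check the labels, and the group names below stand for the labels. The erythroid identity could be checked. The 10 measured erythroblast markers, which include Gata1, Klf1, Tal1 and Tfrc, had a mean of 12.75, 12.73 and 12.75 in the DKO arrays, against 12.83, 12.80 and 12.67 in the E2f8 KO arrays. Their differences lay between -0.20 and 0.26, and none passed the test.

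Of 12980 genes tested, 308 passed an adjusted p of 0.05 in the limma fit, called here, which is 2.37% of all genes. The call was higher in DKO for 224 genes (1.73%) and lower for 84 (0.647%). The median difference over all genes was -0.02. In every called gene the 3 DKO values lay on one side of the 3 E2f8 KO values, but so they did in 35.0% of all genes. The count depended on single arrays: it was 380, 90 and 106 without DKO replicate 1, 2 and 3, 79, 94 and 106 without E2f8 KO replicate 1, 2 and 3, 712 without Rb KO replicate 1, and between 213 and 385 without any other array. A set of 67 genes (0.516%), 48 higher (0.37%) and 19 lower (0.146%), was called in the full fit and under each of these 12 omissions, and those genes are given in most detail. Nothing in the labels says that the mice were litter mates or were sorted together, and the p-values measure only how far these arrays vary.

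**Figure D1:**
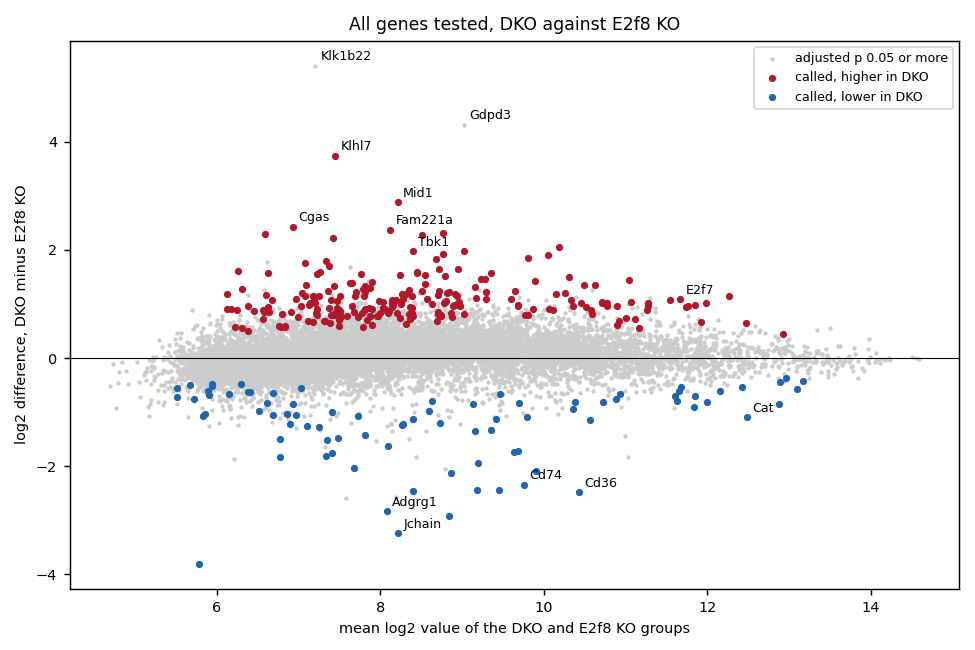
Log2 difference, DKO minus E2f8 KO, of each of the 12980 genes (vertical axis) against its mean log2 value over both groups (horizontal axis), with the 224 genes called higher in DKO in red and the 84 called lower in blue. Klhl7 was the called gene with the largest rise, and the uncalled Klk1b22 and Gdpd3 lay above it.

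The largest called rise was in Klhl7, an adaptor that brings substrates to a cullin ubiquitin ligase. Klhl7 measured 9.93, 9.04 and 8.99 in the DKO arrays, against 5.73, 5.48 and 5.52 in the E2f8 KO arrays. It was thus 13.4-fold higher in DKO, a log2 difference of 3.74 ± 0.24 (SE, adjusted p = 1.04e-05), and no array of the other groups exceeded 6.5. Mid1, a ubiquitin ligase of the microtubules, measured 10.19, 9.28 and 9.50 in DKO, against 6.75, 6.96 and 6.60 in E2f8 KO. The difference was 2.89 ± 0.28 (adjusted p = 1.95e-04), with all 3 DKO arrays far above the rest. Fhl1, a LIM domain protein, measured 9.57, 9.95 and 10.25 in DKO, against 7.32, 7.56 and 7.96 in E2f8 KO, a difference of 2.31 ± 0.20 (adjusted p = 9.35e-05). Fam221a rose by 2.37, Dpysl2, which guides axons through the cytoskeleton, by 2.05, Slfn9 of the Schlafen family by 1.98 and Ubxn8 of the endoplasmic reticulum by 1.90, all called under every omission of an array. Usp51, a histone deubiquitinase, rose by 2.30 and was the least tight of these, with 6.69, 8.12 and 8.41 in DKO against 5.13, 5.58 and 5.62 in E2f8 KO.

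**Figure D2:**
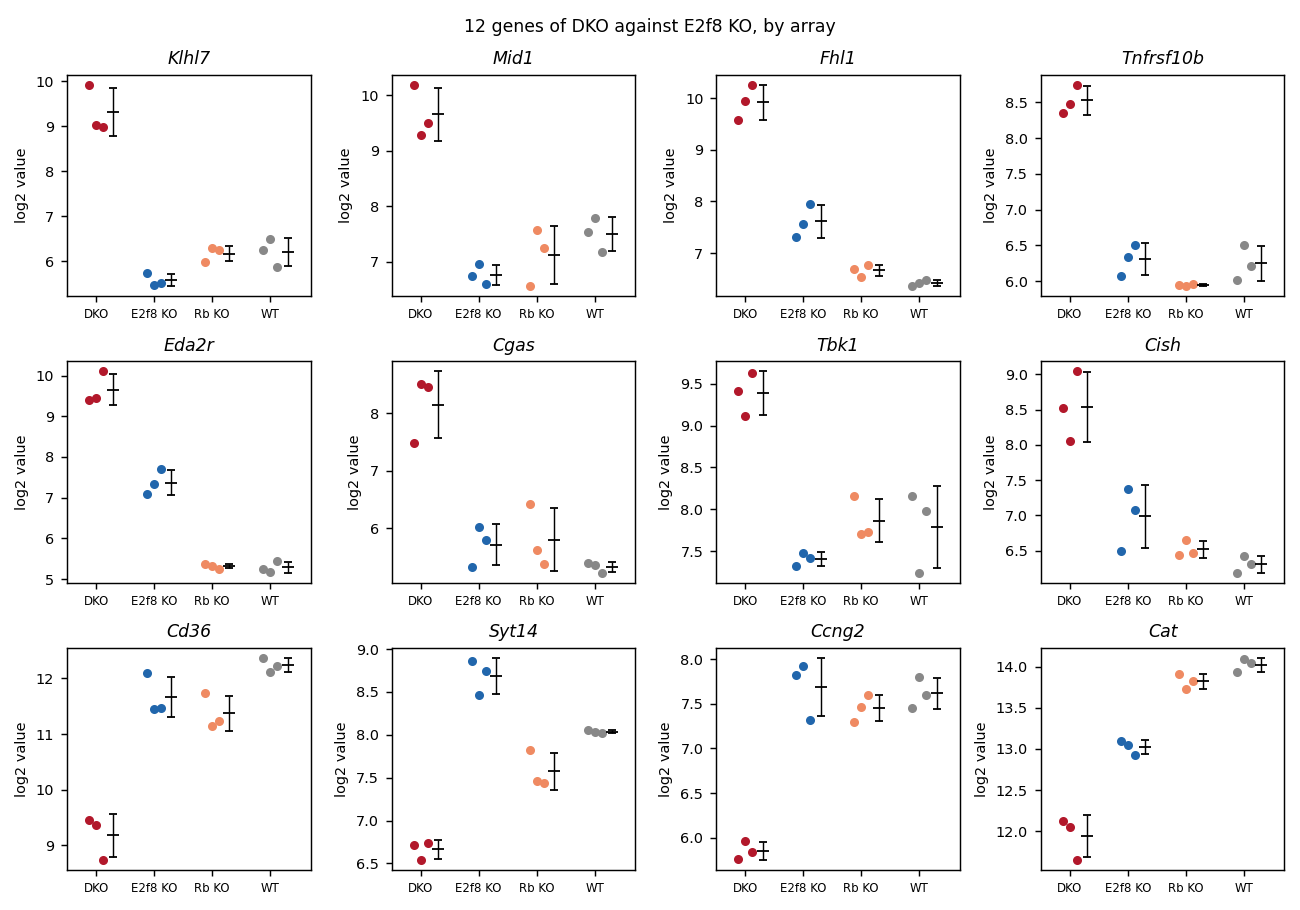
Log2 values of 12 genes in each array (points, replicates 1 to 3 from left to right) with the group mean and SD beside them, for DKO, E2f8 KO, Rb KO and WT. The 3 DKO points lie apart from the 3 E2f8 KO points in every panel, above them for the first 8 genes and below them for Cd36, Syt14, Ccng2 and Cat.

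Cgas and Tbk1, which act in the sensing of DNA in the cytoplasm, were also called under every omission. Cgas, the enzyme that detects DNA in the cytoplasm, measured 7.49, 8.51 and 8.46 in the DKO arrays, against 5.32, 6.03 and 5.80 in the E2f8 KO arrays. It was 5.40-fold higher in DKO (log2 difference 2.43 ± 0.30, adjusted p = 0.00111), without overlap. Tbk1, the kinase that acts below it toward interferon genes, measured 9.41, 9.11 and 9.63 in DKO, against 7.32, 7.48 and 7.42 in E2f8 KO (difference 1.98 ± 0.24, adjusted p = 9.43e-04). Sting1, which links the 2 proteins and is named outside the naming rule given below, differed by -0.49 and did not pass (adjusted p = 0.597). Of 32 measured genes of the interferon list, Cgas itself was called higher, and Gbp7 and Rsad2 were called lower, by 1.94 and 0.56 on the log2 scale. Over all genes, 1.73% were called higher and 0.647% lower. The median of the list was -0.10. The call of Gbp7 held in 3 of the 12 omissions and that of Rsad2 in 8, with adjusted p of up to 0.169 and 0.0767.

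Targets of the p53 protein, which arrests or kills damaged cells, held 5 called genes, all higher, among 30 measured, against 1.73% of all genes called higher. Tnfrsf10b, a death receptor for TRAIL, measured 8.36, 8.48 and 8.75 in DKO, against 6.07, 6.34 and 6.51 in E2f8 KO, a difference of 2.22 ± 0.16 (adjusted p = 3.52e-05). Eda2r, a receptor of the same family, measured 9.40, 9.46 and 10.10 in DKO, against 7.08, 7.34 and 7.70 in E2f8 KO, a difference of 2.28 ± 0.20 (adjusted p = 9.35e-05). In both genes every DKO array lay well above every E2f8 KO array. Pidd1, a scaffold for caspase-2, rose by 1.47 ± 0.19 and Psrc1, a microtubule protein, by 1.43 ± 0.23 (adjusted p = 0.00193 and 0.00723). The RNA-binding protein gene Zmat3 rose by 1.76 ± 0.32 (adjusted p = 0.0125), but lost its call without DKO replicate 2 or 3 or E2f8 KO replicate 1 or 2 (adjusted p up to 0.0767). The list had 21 genes above 0 and 9 below, with a median of 0.31. Mdm2, a fixed p53 gene of the naming rule, differed by 0.28 and did not pass (adjusted p = 0.43). Phlda3, an Akt inhibitor named here after its values were seen, differed by 0.96 without passing (adjusted p = 0.0611). Within the list of 30 Bcl2 family genes and death receptors, Tnfrsf10b was the only called gene, and Bcl2l1, which protects late erythroblasts, differed by -0.54 at an adjusted p of 0.0512.

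Of 13 measured Rb and E2F family genes, 3 were called, all higher in DKO, against 1.73% of all genes. The list had 8 genes above 0 and 5 below, with a median of 0.41. E2f7, the partner of E2f8, measured 11.95, 12.18 and 12.49 in DKO, against 11.18, 11.08 and 11.10 in E2f8 KO (difference 1.09 ± 0.25, adjusted p = 0.0386). E2f3, an activator held by Rb, measured 9.05, 9.11 and 9.25 in DKO, against 7.57, 8.06 and 8.05 in E2f8 KO (difference 1.24 ± 0.29, adjusted p = 0.0462). E2f1, the other main activator, measured 12.13, 12.22 and 12.38 in DKO, against 11.34, 11.32 and 11.19 in E2f8 KO (difference 0.96 ± 0.23, adjusted p = 0.0494). The groups did not overlap in any of the 3, yet none of the calls held without DKO replicate 2 or 3, any E2f8 KO array, or Rb KO replicate 2, with adjusted p of up to 0.147 for E2f7, 0.209 for E2f3 and 0.167 for E2f1. Without DKO replicate 1 or WT replicate 3, 1 of the 3 was called. Tfdp1, the dimer partner of the E2Fs, differed by 0.72 and the Rb relative Rbl1 by 0.44, and neither passed (adjusted p = 0.117 and 0.309). A fit of the 3 DKO and 3 E2f8 KO arrays alone called 8 of the 13 higher, against 846 of all 12980 genes.

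DNA replication genes shifted upward almost as a whole. Of 58 measured, 56 had a difference above 0, against 47.3% of all genes, with a median of 0.57. In 50 of them every DKO array exceeded every E2f8 KO array, against 18.1% of all genes. The mean of the list was 10.75, 10.82 and 10.79 in the DKO arrays, against 10.19, 10.15 and 10.24 in the E2f8 KO arrays, with no overlap and less spread than in Rb KO, at 10.31, 9.81 and 9.29, or WT, at 9.93, 9.25 and 9.41. The test called 8 of the 58, all higher, against 1.73% of all genes called higher. Cdt1, which licenses replication origins, measured 12.15, 12.18 and 12.30 in DKO, against 11.34, 11.27 and 11.18 in E2f8 KO, a difference of 0.95 ± 0.20 (adjusted p = 0.0314). Pole4, a subunit of polymerase epsilon, measured 11.66, 11.79 and 11.82 in DKO, against 10.89, 10.85 and 10.64 in E2f8 KO, a difference of 0.97 ± 0.17 (adjusted p = 0.00964). The helicase gene Recql4 rose by 0.91, the polymerase delta subunit Pold3 by 0.94 and the fork protein Timeless by 0.91. Mcm10, which starts unwinding at origins, rose by 1.21, Rfc4 of the clamp loader by 1.07 and Pola2 of the primase complex by 0.73, and these 3 are named as the rest of the 8.

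The number of called replication genes rested on the arrays much more than their shift did. It was 3, 0 and 1 without DKO replicate 1, 2 and 3, and 1 without each E2f8 KO array. In the full fit 34 members were higher at an unadjusted limma p under 0.05, against 1392 of all 12980 genes. Without DKO replicate 2, 26 members still had an unadjusted limma p under 0.05. Without Rb KO replicate 1, 2 or 3 the number called was 20, 4 and 13. The median stayed between 0.56 and 0.60 when any 1 DKO or E2f8 KO array was left out. Leaving out an Rb KO or WT array cannot change it, since each label has its own coefficient. Nucleotide synthesis shifted less, with a median of 0.25 over 28 genes and 1 call, the purine enzyme Paics at 0.65 ± 0.13 (adjusted p = 0.0217, up to 0.111 with an array left out). Mitosis and cytokinesis did not share the shift. Among 67 genes the median was -0.04 (0.03 with each array centred on its median), 27 were above 0, and the centromere protein gene Cenpm was the only call, at 0.97 ± 0.22 (adjusted p = 0.0368, up to 0.152 with an array left out). The nucleotide and mitosis lists thus held 1 call each, against 1.73% of all genes called higher.

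DNA damage and replication stress genes also lay mostly above 0. Of 47 measured, 44 had a difference above 0, against 47.3% of all genes, and the median was 0.54. The test called 7 of them, all higher in DKO, against 1.73% of all genes. Xrcc3, which acts in repair by recombination, measured 8.81, 9.0 and 8.77 in DKO, against 7.61, 7.59 and 7.83 in E2f8 KO (difference 1.19 ± 0.17, adjusted p = 0.0032), with a wide gap between the groups, and was the 1 member called under every omission. Ung, which removes uracil from DNA, rose by 1.24, the checkpoint clamp gene Rad1 by 1.01, Rad51b by 1.1 and Fancg of the Fanconi anaemia complex by 0.96. Bard1, the partner of Brca1, rose by 1.01 and the helicase gene Mcm8 by 1.28. The count of 7 fell to 1 without E2f8 KO replicate 1, 2 without DKO replicate 2, 3 without E2f8 KO replicate 2, and 4 without DKO replicate 3 or E2f8 KO replicate 3, and was 12 without Rb KO replicate 1. It was 23 in a fit of the 3 DKO and 3 E2f8 KO arrays alone, which called 846 of all 12980 genes higher.

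**Figure D3:**
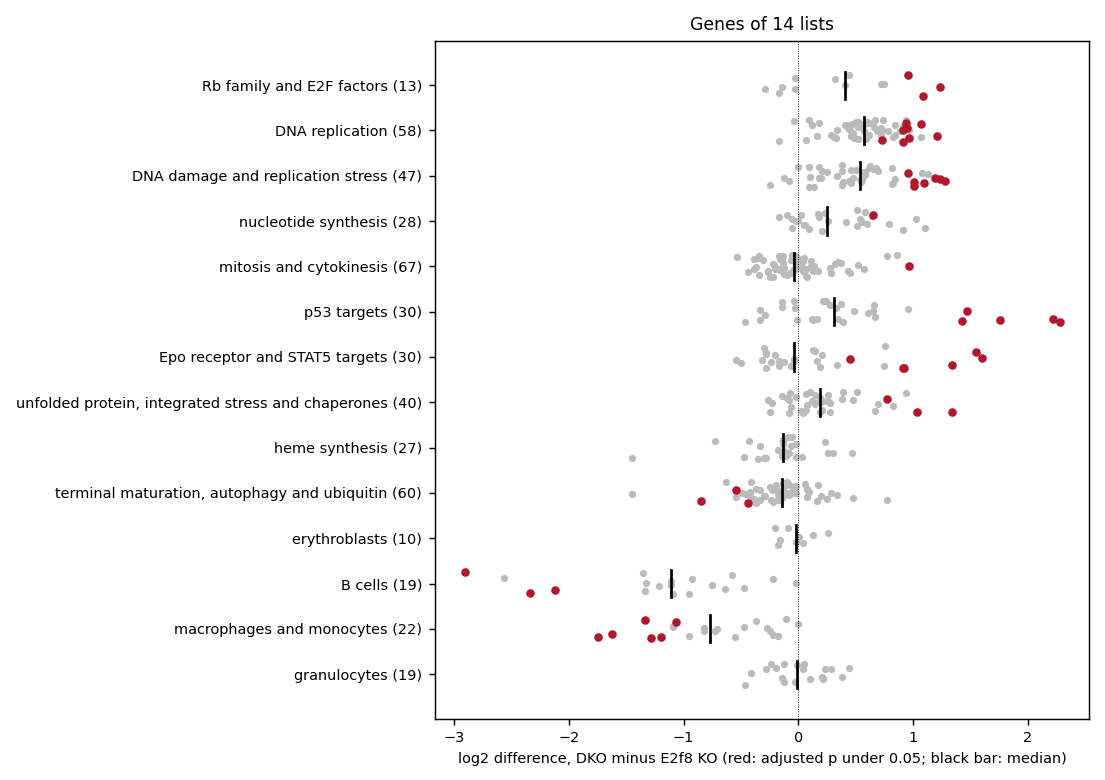
Log2 difference, DKO minus E2f8 KO (horizontal axis), of each measured gene of 14 lists, with the number of genes in brackets, called genes in red and a black bar at the median. The replication and damage lists are shifted as a body (medians 0.57 and 0.54), the p53 and STAT5 lists hold a few far genes, and the B cell and macrophage genes lie at or below 0.

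Promoter sequences of the called genes were searched for words bound by E2F proteins, TTTCCCGC, TTTGGCGC, TTTCGCGC and TTTGCCGC, on either strand, in windows from 250 bases before to 50 bases after each RefSeq start (build GRCm38.p6). A window was found for 185 of the 224 genes called higher, 64 of the 84 called lower and 10317 of all genes tested. At least 1 word was present for 13.5% of the genes called higher and 4.69% of those called lower, against 4.45% of all genes. The stretches below are shown because they belong to called genes, of which E2f3 and E2f7 are on the E2F list, Pole4 on the replication list and Cgas on the interferon list, while Dtl is on none, with the word in capitals as it reads on the strand of the gene and each stretch ending at the start at the latest. They lie at chr13:29986064-29986114 on the minus strand for E2f3, chr10:110745201-110745288 on the plus strand for E2f7, chr6:82652875-82652948 on the minus strand for Pole4, chr1:191575545-191575592 on the minus strand for Dtl and chr9:78443352-78443439 on the minus strand for Cgas.
E2f3: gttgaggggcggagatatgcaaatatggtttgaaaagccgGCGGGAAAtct
E2f7: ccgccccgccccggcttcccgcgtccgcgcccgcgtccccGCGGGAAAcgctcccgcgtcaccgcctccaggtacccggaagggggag
Pole4: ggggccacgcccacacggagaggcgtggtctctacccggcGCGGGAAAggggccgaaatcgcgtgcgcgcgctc
Dtl: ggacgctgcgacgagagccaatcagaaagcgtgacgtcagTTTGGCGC
Cgas: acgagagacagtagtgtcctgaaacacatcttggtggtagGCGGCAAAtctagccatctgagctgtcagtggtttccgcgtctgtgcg
The word of Dtl, whose product marks Cdt1 for destruction, ends at the start of the gene and is also within the window of Ints7, which is read the other way. Both genes, named after their values were seen, were called higher, Dtl by 1.02 (adjusted p = 0.0341) and Ints7 by 1.02 (adjusted p = 0.0250). The Dtl call held in 5 of the 12 omissions and the Ints7 call in 7. The cell cycle word TTTGAA of mitotic promoters was present for 8.11% of the genes called higher and 25% of those called lower, against 14% of all genes. The GATA words AGATAA and TGATAA were present for 7.03% of the genes called higher and 15.6% of those called lower, against 12.5% of all genes, and CCAAT for 50.8%, 45.3% and 41.7%. A word is no evidence of binding, and base composition was not matched between the sets.

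Cytokine and stress genes held further calls. The erythropoietin receptor acts through the kinase Jak2 and the factor STAT5, and 6 of 30 measured genes of this list were called, all higher, against 1.73% of all genes, while the median of the list was -0.04 (0.03 with centred arrays). Cish, a feedback inhibitor induced by STAT5, measured 8.52, 8.05 and 9.04 in DKO, against 6.5, 7.38 and 7.07 in E2f8 KO (difference 1.55 ± 0.25, adjusted p = 0.00723). Podxl, a surface sialomucin, measured 7.86, 8.5 and 7.83 in DKO, against 6.25, 6.51 and 6.64 in E2f8 KO (difference 1.60 ± 0.18, adjusted p = 6.60e-04). Both rose without overlap and under every omission of an array, as did the pseudokinase gene Trib3, by 1.34 ± 0.20 (adjusted p = 0.00434). Socs3, another feedback inhibitor, rose by 0.91, the cytokine gene Osm by 0.92 and the kinase gene Pim1, the remaining called member, by 0.45, with calls that held in 10, 7 and 6 of the 12 omissions. The count of 6 was 4 without DKO replicate 2 or 3 or E2f8 KO replicate 3, and 3 without E2f8 KO replicate 1 or 2. Epor itself measured 12.04, 11.98 and 11.85 in DKO, against 12.22, 12.16 and 12.08 in E2f8 KO, and did not pass (adjusted p = 0.647).

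Of 40 genes of the unfolded protein and integrated stress responses, 3 were called, all higher, against 1.73% of all genes, with a median of 0.19. Dnajb9, a chaperone cofactor of the endoplasmic reticulum, measured 11.18, 11.09 and 11.44 in DKO, against 10.31, 10.17 and 10.11 in E2f8 KO (difference 1.04 ± 0.17, adjusted p = 0.00726), a gap larger than the spread in either group. Trib3 belongs to this list too, and Atf5 rose by 0.77 ± 0.17 (adjusted p = 0.0355, up to 0.177 with an array left out). Psat1, an enzyme of serine synthesis on the amino acid list, measured 9.40, 9.82 and 9.56 in DKO, against 8.03, 7.77 and 7.49 in E2f8 KO, a difference of 1.83 ± 0.25 (adjusted p = 0.00227). Sc5d, a late enzyme of cholesterol synthesis, was the only call among 26 lipid synthesis genes, against 1.73% of all genes called higher. It rose by 0.97 ± 0.18 (adjusted p = 0.0165, up to 0.11 with an array left out).

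Among the genes that fell, Cd36 stood first in the erythroid lists. Cd36, a fatty acid receptor of erythroid precursors and also of macrophages, measured 9.45, 9.36 and 8.74 in the DKO arrays, against 12.09, 11.45 and 11.46 in the E2f8 KO arrays. It fell by 2.48 on the log2 scale (SE 0.23, adjusted p = 1.37e-04), and no array of the other groups was below 11.14. Catalase, which removes hydrogen peroxide and is abundant in red cells, measured 12.12, 12.05 and 11.65 in DKO, against 13.10, 13.05 and 12.93 in E2f8 KO (difference -1.09 ± 0.11, adjusted p = 3.10e-04). Ccng2, a cyclin raised in cells that stop dividing, measured 5.76, 5.96 and 5.84 in DKO, against 7.82, 7.92 and 7.32 in E2f8 KO (difference -1.83 ± 0.17, adjusted p = 1.80e-04). These 3 were called under every omission, and their DKO values were the lowest of the 12 arrays. Syt14, a synaptotagmin, measured 6.72, 6.54 and 6.74 in DKO, against 8.86, 8.46 and 8.74 in E2f8 KO, and Ephx3, an epoxide hydrolase, 6.03, 5.89 and 6.17 in DKO, against 7.5, 7.75 and 7.32 in E2f8 KO. They fell by 2.02 and 1.49, again without overlap.

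Genes of late erythroid maturation lay mostly below 0. Of 60 measured genes for maturation, autophagy and ubiquitin, 48 had a difference below 0, against 52.7% of all genes, and the median was -0.14. Called lower were Xpo7, a nuclear exporter needed for nuclear condensation in mouse erythroblasts, by 0.85, Ube2o, a ubiquitin enzyme that clears ribosomes from reticulocytes, by 0.54, and the ubiquitin ligase gene Rnf10 by 0.44. Their adjusted p was 0.0283, 0.0259 and 0.0275, and these 3 calls among 60 stood against 0.647% of all genes called lower. All 3 calls were lost without DKO replicate 3 or without any 1 E2f8 KO array, and those of Xpo7 and Rnf10 also without DKO replicate 2, with adjusted p of up to 0.138, 0.121 and 0.128 for the 3 genes in that order. The membrane scaffold gene Mpp1 fell by 0.70 ± 0.13 (adjusted p = 0.0131, up to 0.0847 with an array left out). Heme synthesis had no limma call among 27 genes and a median of -0.13, with 22 below 0. At an unadjusted p under 0.05, 5 of the 27 were lower, against 957 of all 12980 genes. A fit of the 3 DKO and 3 E2f8 KO arrays alone called 7 of the 27 lower. That fit also called 14 of the 60 maturation genes lower, against 416 of all 12980 genes. In the main fit no gene was called among 20 of iron handling, 44 erythroid transcription factors, 5 globin genes, 31 histones, 25 G1/S regulators, 47 ribosomal proteins, 38 genes of ribosome biogenesis, 46 of oxidative phosphorylation, 25 of glycolysis, 37 of the proteasome or 14 of the MYC network. Of the 332 genes on these 11 lists, 34 had an unadjusted p under 0.05, against 2349 of all 12980 genes tested. Ribosome biogenesis genes had a difference above 0 in 31 of 38 (median 0.20).

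Among the marker lists of other spleen cells, those of B cells, plasma cells and macrophages held calls, all lower in DKO. In bulk samples, fewer cells of a type and less RNA per cell cannot be told apart. Of 19 B cell genes all had a difference below 0 (median -1.11), and the list mean was 6.34, 6.65 and 7.34 in DKO, against 7.79, 8.03 and 8.14 in E2f8 KO. Both groups lay far below Rb KO, at 9.54, 11.68 and 11.62, and WT, at 10.66, 11.66 and 10.14. The 3 calls, against 0.647% of all genes called lower, were genes of MHC class II, which macrophages also express. Cd74, its invariant chain, measured 7.70, 8.74 and 9.33 in DKO, against 10.71, 11.03 and 11.05 in E2f8 KO, a difference of -2.34 ± 0.39 (adjusted p = 0.00781). H2-Aa fell by 2.12 and H2-Ab1 fell by 2.91 (adjusted p = 0.00827 and 0.0112), and the call of H2-Ab1 was lost without DKO replicate 2 or E2f8 KO replicate 2 or 3 (adjusted p up to 0.0589). Without Rb KO replicate 1, 8 genes of the list were called. The receptor gene Cd79b, which marks B cells more strictly, differed by -1.34 and did not pass (adjusted p = 0.153). The antibody light chain genes Igkv5-43 and Igkv10-96, on neither the B cell nor the plasma cell list, were called lower. Igkv5-43 differed by -3.8, the largest fall of all called genes, and Igkv10-96 by -2.44 (adjusted p = 0.0279 and 0.0373 in limma). Their calls held in 7 and 6 of the 12 omissions, with adjusted p of up to 0.127 and 0.161. Jchain, which joins secreted antibodies of plasma cells, measured 5.58, 7.33 and 6.87 in DKO, against 9.62, 10.10 and 9.78 in E2f8 KO. It fell by 3.24 (SE 0.43, adjusted p = 0.00193), the largest fall among genes called under every omission.

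Macrophage genes gave 6 calls among 22, all lower, against 0.647% of all genes, with a median of -0.77. The list mean was 7.19, 7.24 and 7.73 in DKO, against 8.11, 8.16 and 8.20 in E2f8 KO, below 8.39, 8.57 and 8.31 in Rb KO and 9.22, 9.50 and 8.84 in WT. Adgre1, which encodes F4/80, measured 6.26, 6.54 and 6.79 in DKO, against 8.14, 8.32 and 8.39 in E2f8 KO (difference -1.75 ± 0.22, adjusted p = 0.0014). Csf1r, the receptor for macrophage growth factor, fell by 1.62, Vcam1, an adhesion molecule of the macrophages that hold erythroblasts, by 1.34, and the receptor kinase gene Axl by 1.20. These 4 fell under every omission, while Mrc1 (-1.28) and C1qa (-1.07, the remaining call) kept their calls in 5 and 4 of the 12 omissions. Lgmn, a lysosomal protease on none of the lists, measured 8.71, 8.65 and 9.11 in DKO, against 10.72, 10.56 and 10.35 in E2f8 KO, and fell by 1.72. No T cell gene was called among 8 (median -0.36). Granulocyte genes spread within DKO, with a list mean of 6.73, 7.75 and 9.96, against 8.23, 8.33 and 7.89 in E2f8 KO, and none of 19 was called. Genes of NK cells, dendritic cells, megakaryocytes, mast cells and stroma held no call either. Of 69 genes on the 8 cell type lists without a call, erythroblasts included, 11 had an unadjusted p under 0.05, against 2349 of all 12980 genes.

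When the fit included the mean of the macrophage list, 50 genes were called, 39 higher and 11 lower, of which 41 were among the 308. Klhl7, Mid1, Cgas, Tnfrsf10b, Eda2r, Fhl1 and Cish were still called (difference 2.14 to 3.77), as were Cd36 (-3.05), Cat (-1.38), Ccng2 (-1.79), Syt14 (-1.99) and Xpo7 (-1.40, adjusted p = 0.0419), while Ube2o (-0.83, adjusted p = 0.0633) was not. Through the settings 98 genes were followed, not all of them called in the main fit or named here. With the macrophage mean 63 of them lost a call, 33 kept their status, called or not, and 2 turned sign. Among the 63 were genes called under every omission, given here with difference and adjusted p in that limma fit. They included Tbk1 (1.77, 0.0813), Pidd1 (1.40, 0.0876), Psrc1 (1.43, 0.124), Podxl (1.51, 0.073), Trib3 (1.14, 0.13), Xrcc3 (1.07, 0.117), Ephx3 (-1.31, 0.0564) and Jchain (-3.17, 0.0868). In the main fit the differences of these genes, in that order, were 1.98, 1.47, 1.43, 1.60, 1.34, 1.19, -1.49 and -3.24. The macrophage list mean did not overlap between DKO and E2f8 KO, so this fit cannot fully tell it apart from the labels. No gene of the E2F, replication or damage lists was called in that limma fit, with 3, 13 and 14 at an unadjusted p under 0.05 and medians of 0.44, 0.58 and 0.66. These unadjusted counts were not set against all genes in that fit. With the mean of the B cell list included instead, 1569 genes were called and the medians were 0.23, 0.26 and 0.35. The part of these cells in the other results was not tested further.

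**Figure D4:**
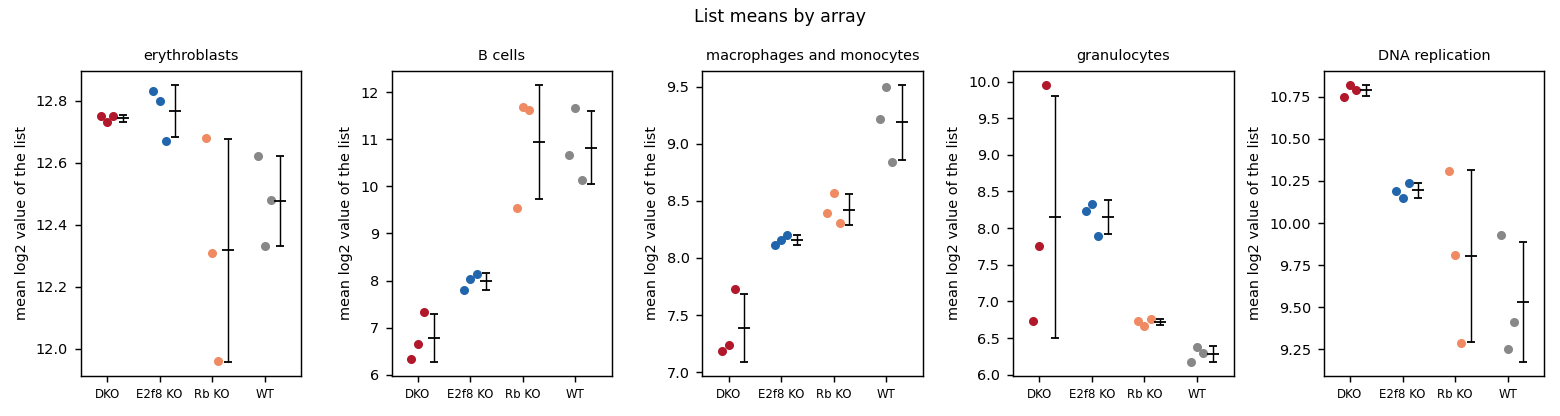
Mean log2 value of the genes of 5 lists in each array (points) with the group mean and SD beside them, for DKO, E2f8 KO, Rb KO and WT. Erythroblast genes overlap between DKO and E2f8 KO, B cell and macrophage genes are lower in DKO, granulocyte genes spread from 6.73 to 9.96 in DKO, and replication genes are higher in DKO.

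Several of the widest falls followed a pattern that crossed the labels. Adgrg1, an adhesion receptor, measured 6.53, 6.95 and 6.49 in DKO, against 9.21, 9.39 and 9.88 in E2f8 KO (difference -2.84 ± 0.44, adjusted p = 0.00628). It was also low in Rb KO, at 6.35, 6.46 and 6.59, and uneven in WT, at 9.30, 8.25 and 6.82. The phosphodiesterase gene Gdpd1 fell by 2.45 and likewise spread in WT, at 8.42, 9.68 and 7.51. Vars, a tRNA synthetase gene, measured 8.57, 9.17 and 8.82 in DKO, against 10.90, 10.91 and 11.03 in E2f8 KO (difference -2.10 ± 0.40, adjusted p = 0.0181). WT replicate 2, at 10.30, stood near E2f8 KO, and WT replicates 1 and 3, at 8.59 and 8.18, stood near DKO. D17H6S56E-5, its neighbour on chromosome 17, measured 8.21, 8.35 and 8.12 in DKO, against 10.57, 10.57 and 10.86 in E2f8 KO, with 9.69 in WT replicate 2 and 7.58 and 6.73 in WT replicates 1 and 3 (adjusted p = 0.0341). Its call held in 5 of the 12 omissions, with an adjusted p of up to 0.13, and that of Vars in 7, with up to 0.0783. Each was lost without DKO replicate 2 or 3 or any 1 E2f8 KO array, and that of D17H6S56E-5 also without DKO replicate 1 or Rb KO replicate 2. A value that splits mice of the same label does not follow the label alone, and what separates these mice was not tested.

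The same Rb comparison without the E2f8 label gave 1 called gene, 0.0077% of those tested, against 2.37% here. That count was 140 without Rb KO replicate 1, against 712 here, and 35 without WT replicate 3, against 385 here. It stayed at 1 without any other array. A gap between such counts is no test of a difference in response. The 2 comparisons share no array. Across the 12980 genes their differences had a Pearson correlation of 0.399 and a Spearman correlation of 0.335, given as a description, since genes are not independent. Of the 308 called genes 89.0% had the same sign in Rb KO minus WT, against 60.7% of all genes. The 224 higher genes had a median of 0.99 in DKO minus E2f8 KO and 0.20 in Rb KO minus WT, and the 84 lower genes -1.01 and -0.41. These genes were chosen for their difference in the first comparison, so a smaller median in the second follows from that choice and shows no difference between the comparisons. The replication list had a median of 0.57 and 0.30, and E2f1 differed by 0.96 ± 0.23 and 1.06 ± 0.23, with an adjusted p of 0.19 in the second. The macrophage list had a median of -0.77 and -0.86.

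Whether a gene responded differently was tested by the interaction of both labels, and 10 genes passed (0.077% of those tested), with 740 at an unadjusted p under 0.05. The response was larger upward in DKO minus E2f8 KO for Klhl7, Mid1, Tnfrsf10b, Eda2r, Fhl1, Podxl and Snx16, and larger downward for Syt14, Ccng2 and Ephx3. Klhl7 measured 5.98, 6.29 and 6.24 in Rb KO, against 6.25, 6.5 and 5.88 in WT, ranges that overlap (difference -0.04 ± 0.24). Tnfrsf10b measured 5.95, 5.93 and 5.96 in Rb KO, against 6.02, 6.51 and 6.22 in WT. Eda2r measured 5.37, 5.33 and 5.26 in Rb KO, against 5.24, 5.18 and 5.45 in WT, and its E2f8 KO values, from 7.08 to 7.70, were already above both. No member of the E2F or replication lists passed the interaction test, and neither did Cgas (adjusted p = 0.190) or Tbk1 (adjusted p = 0.0878). The count of 10 was 20 without DKO replicate 1, 4 to 6 without DKO replicate 2 or E2f8 KO replicate 1 or 2, 49 without Rb KO replicate 1, 4 without Rb KO replicate 2, 2 without WT replicate 1, 15 without WT replicate 2, 5 without WT replicate 3 and 9 without any other array.

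**Figure D5:**
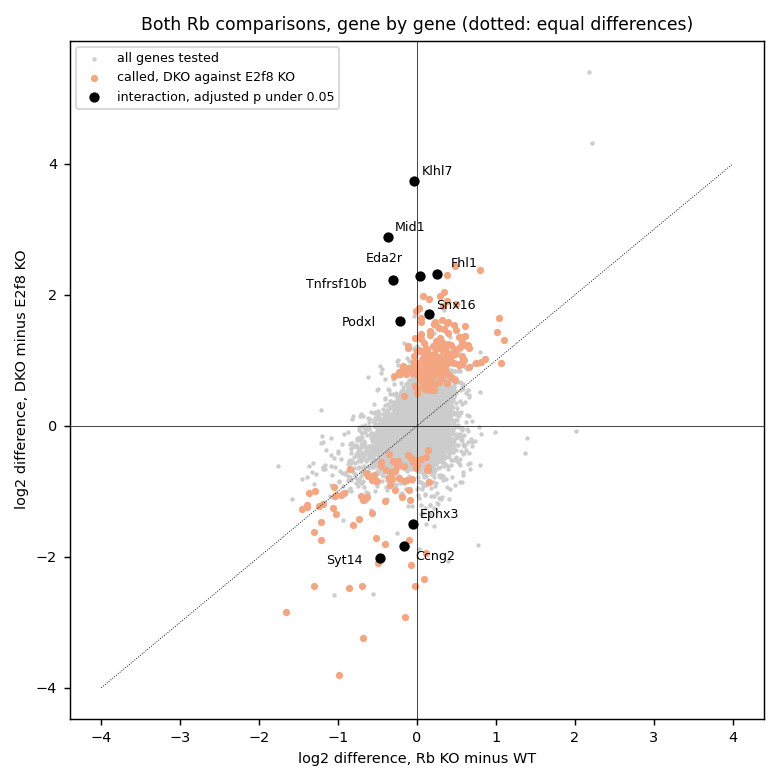
Log2 difference of each gene in DKO minus E2f8 KO (vertical axis) against that in Rb KO minus WT (horizontal axis), with the 308 called genes in orange, the 10 genes that passed the interaction test in black and a dotted line of equal differences. Most called genes (89.0%) lie on the same side of 0 on both axes. The orange points were chosen on the vertical axis, so their lying nearer to 0 on the horizontal axis follows from that choice. The black points were chosen on the gap between both axes, so their distance from the dotted line follows from that choice.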

How the data were processed

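RNA of sorted spleen cells was hybridised to 12 single-channel Affymetrix arrays. The table that the authors deposited has a value for each probe set on each array, on a log2 scale from 1.07 to 14.84, as judged from its range. Per the submitters' processing notes the method was MAS5 (version not stated). The probe set numbers are those of a gene-level array, for which MAS5 is not usual, so the software behind the values is uncertain, and the sources used here give neither background correction nor normalization. No scan date or batch is given either.

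Of 35557 probe sets, 21789 had 1 gene symbol, 1621 had several and 12147 had none. Symbols were updated by gene number through RefSeq (GRCm38.p6), which matched 21698. The lowest 40% by mean (below 5.84) were removed, those without exactly 1 symbol were dropped, and the probe set with the highest mean stood for each gene, which gave 12980 genes, 684 of them with several probe sets. Of 11 called genes with several, none had a probe set of opposite sign. The values were used with no pseudocount or further normalization.

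Limma 3.58.1 in R 4.3.3 fitted 1 coefficient per label to all 12 arrays (8 residual degrees of freedom), with empirical Bayes variances and a mean trend. Tests were two-sided, with Benjamini-Hochberg adjustment over all genes and a threshold of 0.05. Errors beside differences are standard errors. The fit was tested on simulated data. Precision is limited by the small number of arrays.

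The members, the 39 lists (28 of pathways, 11 of cell types) and the tests were chosen with earlier results of these data known, so a list's count supports nothing by itself. Genes were named by rule: the Rb and E2F families, the 12 largest called differences each way without overlap (and the same 12 among genes on no cell type list with a mean of at least 8), the 5 smallest p-values of each list, the 10 called genes with the smallest p, the 6 with the smallest interaction p each way, and fixed erythroid, p53 and sex-linked genes. The text names fewer. Genes outside the rule are said to be so, or are the remaining called members of a list. Phlda3, Dtl, Ints7, Klk1b22 and Gdpd3 were looked up after values were seen.

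Alternatives covered the filter, normalization, probe sets, variance model, threshold, list means as covariates, a replicate block and the omission of arrays. Promoter words and sequences came from RefSeq windows, searched with Python 3.11.15. Some genes are not analysed here.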

Additional observations from a re-analysis of the deposited data

Results flagged for a closer look

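The response to the Rb label differed between the E2f8 KO background and the WT background for 10 genes, by the interaction term of the limma fit (adjusted p under 0.05, DKO minus E2f8 KO less Rb KO minus WT). The log2 difference of differences was 3.78 for Klhl7 (adjusted p = 4.65e-04), 2.53 for Tnfrsf10b (4.65e-04), 3.26 for Mid1 (0.00831), 2.25 for Eda2r (0.00841), 1.55 for Snx16 (0.0124), 2.06 for Fhl1 (0.0139) and 1.82 for Podxl (0.0176). It was -1.44 for Ephx3, -1.56 for Syt14 and -1.67 for Ccng2 (adjusted p = 0.0181 each). All 10 were also called in DKO against E2f8 KO under every omission of 1 array. Snx16, a sorting protein of endosomes, measured 8.08, 8.19 and 8.41 in DKO, against 6.44, 6.65 and 6.48 in E2f8 KO, and 6.68, 6.51 and 6.45 in Rb KO, against 6.45, 6.55 and 6.19 in WT.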

How the results depend on the processing

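The 308 calls of DKO against E2f8 KO (224 higher, 84 lower) became 79 to 712 with 1 array left out (54 to 507 higher, 25 to 205 lower). They were 53 (36 and 17) without DKO replicate 3 and E2f8 KO replicate 3 together, 1262 (846 and 416, with all 308 included) in a fit of the 6 arrays alone, and 2683 (1626 and 1057) with array weights. With the B cell list mean as a covariate there were 1569 (1201 and 368), and with the macrophage list mean 50 (39 and 11), where 1 of the 308 changed sign. A threshold of 0.01 gave 81 (58 and 23), 0.1 gave 615 (444 and 171), and at least 2-fold gave 152 (110 and 42). Centring on the median left 258 (205 and 53), and quantile normalization 312 (199 and 113), a shift of the split between directions. The median of all genes was -0.0221 in the deposited values, 0.0468 after centring, -0.0331 after quantile normalization and 0.117 with the macrophage mean. The other settings stayed within 1.5 times of 308, namely no filter (274), a 60% filter (308), the mean of probe sets (323), all probe sets (334), no trend (339), robust variances (317) and the granulocyte mean (294). The interaction count of 10 was 2 to 49 with 1 array left out, 96 with the B cell mean, 59 with weights, 6 with the 60% filter and 4 at 0.01. Rb KO against WT, with 1 call, had 1 to 140 with 1 array left out, 65 with the B cell mean, 101 with weights, 0 with the macrophage mean (limma, 1235 at an unadjusted p under 0.05), 14 after quantile normalization and 11 at 0.1. Among the 98 genes followed through the settings, Cd79b (0.18) and Gdpd3 (-0.18) turned sign with the macrophage mean, and no other did under any setting. The replicate block gave 248 calls (173 and 75), 13 for the interaction and 1 for Rb KO against WT. Same-numbered DKO and E2f8 KO arrays deviated together with correlations of 0.407, -0.00273 and -0.0257, so the numbers were not taken as pairs. With 3 arrays a group, a missing call does not show that a gene did not differ.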

Other observations

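The widest differences of all were not called. Klk1b22, a kallikrein gene, averaged 9.91 ± 0.08 in DKO, against 4.50 ± 0.80 in E2f8 KO (SD, n = 3 each), and Gdpd3, a lysophospholipase gene, 11.70, 10.84 and 10.99 in DKO, against 6.92, 6.90 and 6.78 in E2f8 KO. The log2 differences were 5.41 (adjusted p = 0.0529) and 4.31 (adjusted p = 0.129). Both were high in all 3 Rb KO arrays, from 10.20 to 10.83 for Klk1b22 and from 12.78 to 13.39 for Gdpd3. WT split: replicate 2 had 3.76 and 5.85, while replicates 1 and 3 had 10.75 and 10.68 for Klk1b22 and 13.15 and 13.45 for Gdpd3. Without WT replicate 2 the adjusted p was 6.59e-06 for Klk1b22 and 3.03e-06 for Gdpd3. H2-Eb1 of MHC class II showed the split the other way up, with 6.83, 6.74 and 7.13 in DKO, against 9.16, 9.59 and 9.67 in E2f8 KO, and 12.07 in WT replicate 2 against 8.94 and 8.31 in the other WT arrays. Klk1b22 and Gdpd3 were looked up after values were seen, while H2-Eb1, Vars and D17H6S56E-5 came under the naming rule. Their shared pattern was picked out after their values were seen. Whether strain, litter or another difference between mice goes with that pattern was not tested.

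Several of the strongest rises are X-linked by RefSeq (Mid1, Fhl1, Usp51, Eda2r and Elf4). Over the whole chromosome, 9 of 353 tested X genes were called higher and 2 lower, 3.12% in all, against 2.37% of all genes. On chromosome 17, 20 of 659 were called higher and 8 lower, 4.25% in all. Elf4, a transcription factor, rose by 1.93 ± 0.37 (adjusted p = 0.0175), with 9.33, 9.82 and 10.04 in DKO, against 7.47, 7.98 and 7.94 in E2f8 KO. Its Rb KO values, 8.27, 9.83 and 9.83, and WT values, 9.17, 9.48 and 8.84, reached the level of DKO, and its call was lost without DKO replicate 2 or 3 or any 1 E2f8 KO array (adjusted p up to 0.105).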
